A study of Mus musculus with 9 samples.

Results

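The neural lineage genes described here were 10 genes. Sox1, Pax6, Nes, Sox4, Sox11, Fabp7 and Hes5 were grouped as early neural genes. Map2, Tubb3 and Dcx, which are used as markers of neurons, were grouped as neuronal genes. All 10 were chosen by name. Each of the 10 had exactly 1 probe set annotated with its symbol alone, out of 19938 genes with such a probe set and 35399 probe sets in all. After the dimmest 40% of genes by mean level were set aside, 9 of the 10 were left, and Dcx was not among them. The data were 9 microarrays of total RNA from mouse pluripotent cells in 3 groups of 3. Embryonic stem cells (ESCs) of strain 129 were kept in 2i, the name for a culture with the GSK3 inhibitor CHIR99021 and the MEK inhibitor PD0325901. Epiblast stem cells (EpiSCs) of strain CD1 were kept in 1 of 2 media: CHIR99021 with XAV939, or FGF2 with activin. XAV939 inhibits tankyrase and thereby keeps Axin from being degraded. FGF2 and activin are the usual growth factors for these cells. The labels list CHIR99021 at 3 µM, PD0325901 at 1 µM, XAV939 at 2 µM and FGF2 and activin at 10 ng/ml each for all samples together, and a medium with 10% fetal bovine serum for all groups. The tissue label reads mouse embryonic stem cell for the EpiSCs too. In each comparison with ESCs, strain and PD0325901 go with cell type. So does XAV939 for CHIR/XAV EpiSCs, as do CHIR99021, FGF2 and activin for FGF2/activin EpiSCs. None of these can be told apart from cell type there. Nothing in the labels states that replicate arrays stem from different cultures, and the p-values therefore reflect array-to-array spread that may be technical only.

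In the embryo, neural tissue arises from the epiblast when signals that direct cells to mesoderm, endoderm or epidermis are low. The first neural progenitors express SoxB1 factors such as Sox1 and, soon after, Pax6, and carry the intermediate filament protein nestin (Nes). Notch signalling keeps progenitors from differentiating, in part through the repressor Hes5. As progenitors become neurons, the SoxC factors Sox4 and Sox11 act in the neuronal programme, and the cytoskeleton takes on Map2, the tubulin Tubb3 and the microtubule-binding protein Dcx (doublecortin). Several of these genes are active outside neural tissue too, so none of them alone identifies a neural cell.

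The values are log2 expression summaries, and a difference of 1 is a 2-fold change. Array medians lay between 5.57 and 5.65, and correlations between arrays of a group across genes, which are not independent replicates, between 0.996 and 0.998. The labels were checked against markers: all 8 naive pluripotency genes examined fell and all 5 primed epiblast genes rose in both EpiSC groups against ESCs (limma, adjusted p under 0.05). Of all genes tested 22.1% fell and 24.7% rose in CHIR/XAV EpiSCs, and 33.5% fell and 27.8% rose in FGF2/activin EpiSCs. The lists were chosen with earlier results of these data known, so this check is not independent. Of 9 fibroblast or feeder markers 2 rose in CHIR/XAV EpiSCs and 5 in FGF2/activin EpiSCs, and none fell as deposited. When arrays were centred on the median of the genes tested, 1 rose and 1 fell in the first and 3 rose and 1 fell in the second. The mean log2 level of that list ranged from 5.04 to 5.08 across the ESC arrays, from 5.26 to 5.34 in CHIR/XAV EpiSCs and from 5.25 to 5.30 in FGF2/activin EpiSCs, and its part in the results below was not tested. In CHIR/XAV EpiSCs the largest change of the list was that of Thy1, from 5.44 to 7.21. Col1a1, Col1a2, Col3a1, Dcn and Lum were not called there. In FGF2/activin EpiSCs the largest change of the list was that of S100a4, from 4.68 to 5.46. Postn went from 4.54 to 4.90 and Twist2 from 5.26 to 5.69. Col1a2 was called higher in FGF2/activin EpiSCs, by 0.18 (limma adjusted p = 0.0399), while Col1a1, Col3a1, Dcn and Lum were not called. No detection call was used, and low values may therefore be background.

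The 10 genes did not move together. Nes, Sox4, Sox11 and Map2 were lowest in ESCs, higher in CHIR/XAV EpiSCs and highest in FGF2/activin EpiSCs. Fabp7 was also higher in both EpiSC groups, but highest in CHIR/XAV. Pax6 and Tubb3 were lower in both EpiSC groups than in ESCs. Dcx changed by less than 1.3-fold, and Sox1 and Hes5 did not pass the test in any of the 3 comparisons. In CHIR/XAV EpiSCs against ESCs 6 of the 10 rose and 2 fell, where 46.7% of the 19938 genes tested were called, 24.7% higher and 22.1% lower. In FGF2/activin EpiSCs against ESCs the same counts, 6 and 2, stood beside 61.3% of all genes called, 27.8% higher and 33.5% lower. At 2-fold or more in CHIR/XAV EpiSCs, 4 of the 10 neural genes rose and 1 fell, where 8.32% of all genes were called, 5.03% higher and 3.3% lower. At 2-fold or more in FGF2/activin EpiSCs, 5 rose and 1 fell, where 10.1% of all genes were called, 6.66% higher and 3.45% lower. The 3 arrays of each group did not overlap for the 8 called neural genes in either comparison, where 53.2% of all genes had groups without overlap in the first and 66.6% in the second. Both comparisons use the same 3 ESC arrays.

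**Figure D1:**
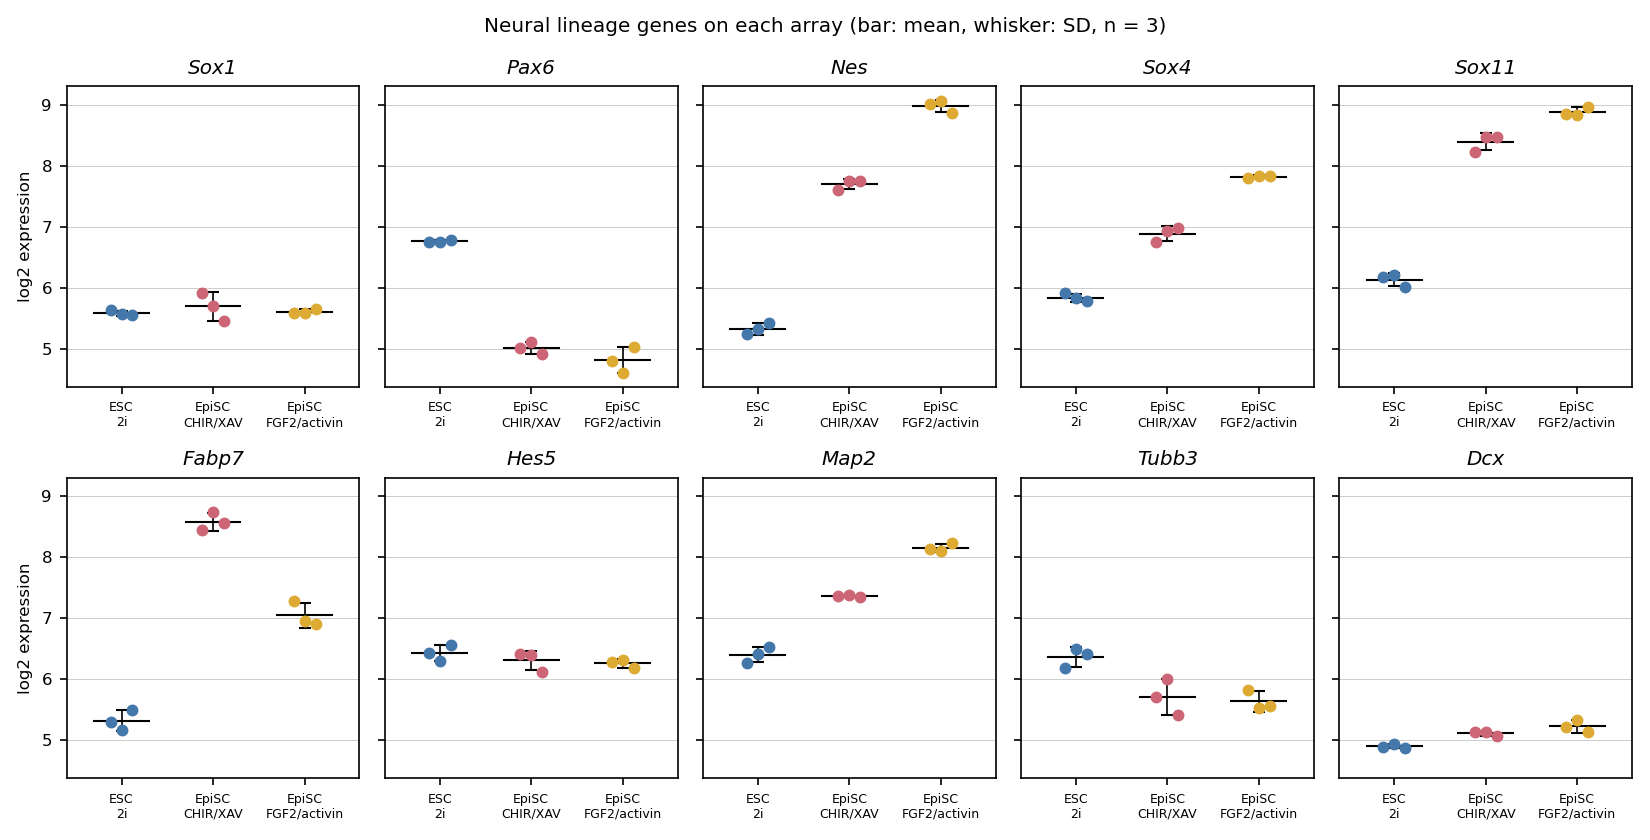
Log2 expression of the 10 neural lineage genes on each of the 9 arrays (points), with the group mean (bar) and SD (whisker, n = 3). The groups are fully separate for Nes, Sox4, Sox11, Fabp7 and Map2, whereas the points of all groups overlap for Sox1 and Hes5.

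Nes, the intermediate filament gene of neural progenitors, showed the largest difference of the 10 genes. On the log2 scale it read 5.23, 5.32 and 5.41 on the ESC arrays, 7.61, 7.74 and 7.75 in CHIR/XAV EpiSCs and 9.01, 9.07 and 8.87 in FGF2/activin EpiSCs. Every array of one group lay apart from every array of the others. Nes rose by 2.38 (SE 0.08, 5.20-fold, limma adjusted p = 5.61e-12) in CHIR/XAV EpiSCs and by 3.66 (SE 0.08, 12.7-fold, limma adjusted p = 5.75e-14) in FGF2/activin EpiSCs. It was lower in CHIR/XAV than in FGF2/activin EpiSCs, by -1.28 (SE 0.08, limma adjusted p = 1.08e-08).

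Sox11 and Sox4, the SoxC transcription factors, followed the same order. Sox11 read 6.17, 6.21 and 6.0 in ESCs, 8.23, 8.47 and 8.48 in CHIR/XAV EpiSCs and 8.86, 8.84 and 8.97 in FGF2/activin EpiSCs. It rose by 2.26 (SE 0.08, 4.80-fold, limma adjusted p = 2.47e-11) and by 2.76 (6.76-fold, limma adjusted p = 2.15e-12), so most of its difference from ESCs was present in both media. Sox4 read 5.90, 5.82 and 5.78 in ESCs, 6.75, 6.93 and 6.98 in CHIR/XAV EpiSCs and 7.79, 7.84 and 7.84 in FGF2/activin EpiSCs. It rose by 1.05 (SE 0.07, 2.07-fold, limma adjusted p = 2.25e-08) in CHIR/XAV and by 1.99 (3.97-fold, limma adjusted p = 1.65e-11) in FGF2/activin EpiSCs. Between the EpiSC groups Sox4 differed by -0.94 (SE 0.07) and Sox11 by -0.49 (SE 0.08), and both were called (limma adjusted p = 1.6e-07 and 0.000292).

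Map2, which binds and stabilises microtubules in dendrites, was the neuronal gene in which every step of that order was called. It read 6.27, 6.42 and 6.52 in ESCs, 7.37, 7.38 and 7.34 in CHIR/XAV EpiSCs and 8.14, 8.10 and 8.23 in FGF2/activin EpiSCs, with no overlap between groups. It rose by 0.96 (SE 0.07, 1.95-fold, limma adjusted p = 7.18e-08) and by 1.75 (3.38-fold, limma adjusted p = 7.66e-11), and differed by -0.79 (SE 0.07, limma adjusted p = 1.06e-06) between the EpiSC groups.

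Because Nes, Sox4, Sox11 and Map2 shared 1 order of groups and Fabp7 another, their promoters are shown for comparison, from RefSeq on build GRCm38.p6. Each window runs 5′ to 3′ on the gene's own strand, from 250 bases before the annotated start through the first 50 transcribed bases, and capitals mark the motifs found by a search.
Nes, chr3:87970843-87971142, plus strand: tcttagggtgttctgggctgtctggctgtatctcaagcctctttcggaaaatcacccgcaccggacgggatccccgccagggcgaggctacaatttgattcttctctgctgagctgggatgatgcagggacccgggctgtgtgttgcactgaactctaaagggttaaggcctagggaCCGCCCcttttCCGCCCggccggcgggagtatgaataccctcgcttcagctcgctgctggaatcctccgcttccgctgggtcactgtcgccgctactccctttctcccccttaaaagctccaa
Sox4, chr13:28953650-28953949, minus strand: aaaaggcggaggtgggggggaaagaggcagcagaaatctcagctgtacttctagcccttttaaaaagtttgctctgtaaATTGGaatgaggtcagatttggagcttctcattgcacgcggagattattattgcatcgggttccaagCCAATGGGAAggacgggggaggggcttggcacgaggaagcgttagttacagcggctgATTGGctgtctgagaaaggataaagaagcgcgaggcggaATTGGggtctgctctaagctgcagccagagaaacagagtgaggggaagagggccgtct
Sox11, chr12:27342669-27342968, minus strand: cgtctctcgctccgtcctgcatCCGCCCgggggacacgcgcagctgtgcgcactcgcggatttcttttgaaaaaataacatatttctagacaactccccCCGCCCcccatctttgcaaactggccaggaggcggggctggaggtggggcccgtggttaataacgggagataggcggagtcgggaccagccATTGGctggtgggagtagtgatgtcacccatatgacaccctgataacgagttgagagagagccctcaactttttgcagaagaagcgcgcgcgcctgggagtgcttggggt
Map2, chr1:66175079-66175378, plus strand: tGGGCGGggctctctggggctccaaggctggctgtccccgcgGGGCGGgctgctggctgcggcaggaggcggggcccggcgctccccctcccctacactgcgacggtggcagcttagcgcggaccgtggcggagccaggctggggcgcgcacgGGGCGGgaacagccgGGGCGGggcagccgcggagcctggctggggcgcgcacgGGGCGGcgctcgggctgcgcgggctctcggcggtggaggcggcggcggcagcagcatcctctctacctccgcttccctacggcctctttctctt
Fabp7, chr10:57784673-57784972, plus strand: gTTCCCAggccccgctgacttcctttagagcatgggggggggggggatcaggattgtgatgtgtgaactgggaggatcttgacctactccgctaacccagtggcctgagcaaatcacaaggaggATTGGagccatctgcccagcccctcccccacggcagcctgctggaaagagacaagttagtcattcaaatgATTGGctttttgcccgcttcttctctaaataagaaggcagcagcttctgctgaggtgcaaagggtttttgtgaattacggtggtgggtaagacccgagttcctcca
The motifs searched on both strands were ACAAAG and ACAATG (SOX-type), CTTTGA (TCF/LEF-type), TGGGAA (RBPJ-type, the DNA partner of Notch), ATGCAAAT (the POU octamer), GGGCGG (GC box) and CCAAT. The windows of Nes, Sox11 and Map2 held GC boxes: 2, 2 and 5 of them, respectively, where 35.7% of all 32851 promoter windows held at least 1. The Sox4 window held 4 CCAAT boxes, the Fabp7 window 2 and the Sox11 window 1, against 37.4% of windows with at least 1. Single TGGGAA matches lay in the Sox4 window, where it shares a base with a CCAAT box, and in the Fabp7 window, against 25.6% of all windows. No SOX-type, TCF/LEF-type or octamer match was found in these 5 windows, where 18.7% of all windows held ACAAAG, 12.6% ACAATG, 16% CTTTGA and 1.74% the octamer. GC content was 58.7% for Nes and Sox11, 52% for Sox4, 77.7% for Map2 and 54% for Fabp7, against a median of 52.7%. The windows of the 4 genes with a shared order therefore had no searched motif in common. The Hes5 window held 2 TGGGAA matches. Matches describe letters only and are not sites of binding.

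Fabp7, which encodes the brain fatty acid binding protein of radial glia, had its highest values in CHIR/XAV EpiSCs. It read 5.30, 5.16 and 5.50 in ESCs, 8.44, 8.74 and 8.56 in CHIR/XAV EpiSCs and 7.28, 6.95 and 6.91 in FGF2/activin EpiSCs. The 3 groups did not overlap. Fabp7 rose by 3.26 (SE 0.11, 9.58-fold, limma adjusted p = 1.14e-11) in CHIR/XAV and by 1.73 (3.31-fold, limma adjusted p = 9.15e-09) in FGF2/activin EpiSCs. It was higher in CHIR/XAV than in FGF2/activin EpiSCs by 1.53 (SE 0.11, 2.90-fold, limma adjusted p = 8.59e-08).

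Pax6, a paired-box transcription factor of neural progenitors and the eye, was lower in both EpiSC groups than in ESCs. It read 6.75, 6.75 and 6.79 in ESCs, 5.01, 5.10 and 4.91 in CHIR/XAV EpiSCs and 4.79, 4.60 and 5.03 in FGF2/activin EpiSCs. All ESC arrays lay above all EpiSC arrays, while the EpiSC groups overlapped. Pax6 fell by 1.75 (SE 0.09, 3.37-fold, limma adjusted p = 1.33e-09) and by 1.95 (3.87-fold, limma adjusted p = 2.99e-10). The difference between the EpiSC groups, 0.20, was not called (95% interval -0.0026 to 0.40, limma adjusted p = 0.105), but was called without FGF2/activin replicate 3, at 0.31 (limma adjusted p = 0.0107), and with array weights, at 0.25 (limma adjusted p = 0.0291).

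Tubb3, the class III beta-tubulin of neurons, also fell, by less. It read 6.18, 6.49 and 6.41 in ESCs, 5.71, 6.0 and 5.41 in CHIR/XAV EpiSCs and 5.82, 5.52 and 5.55 in FGF2/activin EpiSCs. The CHIR/XAV arrays spread most, with an SD of 0.30, but stayed below the ESC arrays. Tubb3 fell by 0.65 (SE 0.13, limma adjusted p = 0.000882) and by 0.73 (SE 0.13, limma adjusted p = 0.000322). Between the EpiSC groups the difference was 0.07 (95% interval -0.21 to 0.36), which did not pass the test (limma adjusted p = 0.692).

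Dcx, the X-linked gene of doublecortin in migrating neurons, was dim everywhere. It read 4.88, 4.93 and 4.87 in ESCs, 5.14, 5.14 and 5.06 in CHIR/XAV EpiSCs and 5.21, 5.33 and 5.13 in FGF2/activin EpiSCs. The ESC arrays were the lowest, and the EpiSC groups overlapped. Dcx rose by 0.21 (SE 0.07, 1.16-fold, limma adjusted p = 0.0201) in CHIR/XAV EpiSCs and by 0.33 (1.25-fold, limma adjusted p = 0.00105) in FGF2/activin EpiSCs. The first call was lost without ESC replicate 1 (limma adjusted p = 0.051), ESC replicate 3 (0.0562), CHIR/XAV replicate 1 (0.0516) or CHIR/XAV replicate 2 (0.0635), with differences of 0.20 to 0.21. It was also lost when arrays were centred on the median of the genes tested, at 0.11 (limma adjusted p = 0.166). Among the 425 X-linked genes outside the dimmest 40%, the median difference from ESCs was 0.19 in CHIR/XAV and 0.24 in FGF2/activin EpiSCs, against 0.04 and 0.09 for autosomal genes. Over all 742 X-linked genes, dim ones such as Dcx included, the medians were 0.02 and -0.04, against -0.03 and -0.08 for autosomal genes, and the part of the X chromosome in the Dcx values was not tested. Dcx differed between the media by -0.11 (limma adjusted p = 0.208), and by -0.21 (limma adjusted p = 0.0282) after quantile normalization.

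Sox1, the SoxB1 factor that marks the first neural progenitors, did not separate the cultures. It read 5.63, 5.56 and 5.55 in ESCs, 5.92, 5.70 and 5.45 in CHIR/XAV EpiSCs and 5.58, 5.58 and 5.65 in FGF2/activin EpiSCs. The CHIR/XAV arrays spanned the whole range of the others. Its difference from ESCs was 0.11 in CHIR/XAV EpiSCs (95% interval -0.09 to 0.32, limma adjusted p = 0.372) and 0.02 in FGF2/activin EpiSCs (95% interval -0.18 to 0.23, limma adjusted p = 0.831). Without CHIR/XAV replicate 3 the first difference was 0.23 and was called (limma adjusted p = 0.0353), and without CHIR/XAV replicate 1 it was -0.0029. The media differed in Sox1 by 0.09 (95% interval -0.12 to 0.29, limma adjusted p = 0.5).

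Hes5, the Notch-induced repressor, read 6.43, 6.29 and 6.56 in ESCs, 6.41, 6.39 and 6.12 in CHIR/XAV EpiSCs and 6.28, 6.31 and 6.17 in FGF2/activin EpiSCs. All groups overlapped. Its difference from ESCs was -0.12 in CHIR/XAV EpiSCs (95% interval -0.31 to 0.08, limma adjusted p = 0.315) and -0.17 in FGF2/activin EpiSCs (95% interval -0.36 to 0.03, limma adjusted p = 0.124). Scaling decided the call: Hes5 was called lower after quantile normalization, by -0.28 (limma adjusted p = 0.0281) and -0.39 (limma adjusted p = 0.00399), and after centring on the genes tested, by -0.22 (limma adjusted p = 0.0476) and -0.24 (limma adjusted p = 0.0259). Hes5 differed between the media by 0.05 (95% interval -0.15 to 0.24, limma adjusted p = 0.697).

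**Figure D2:**
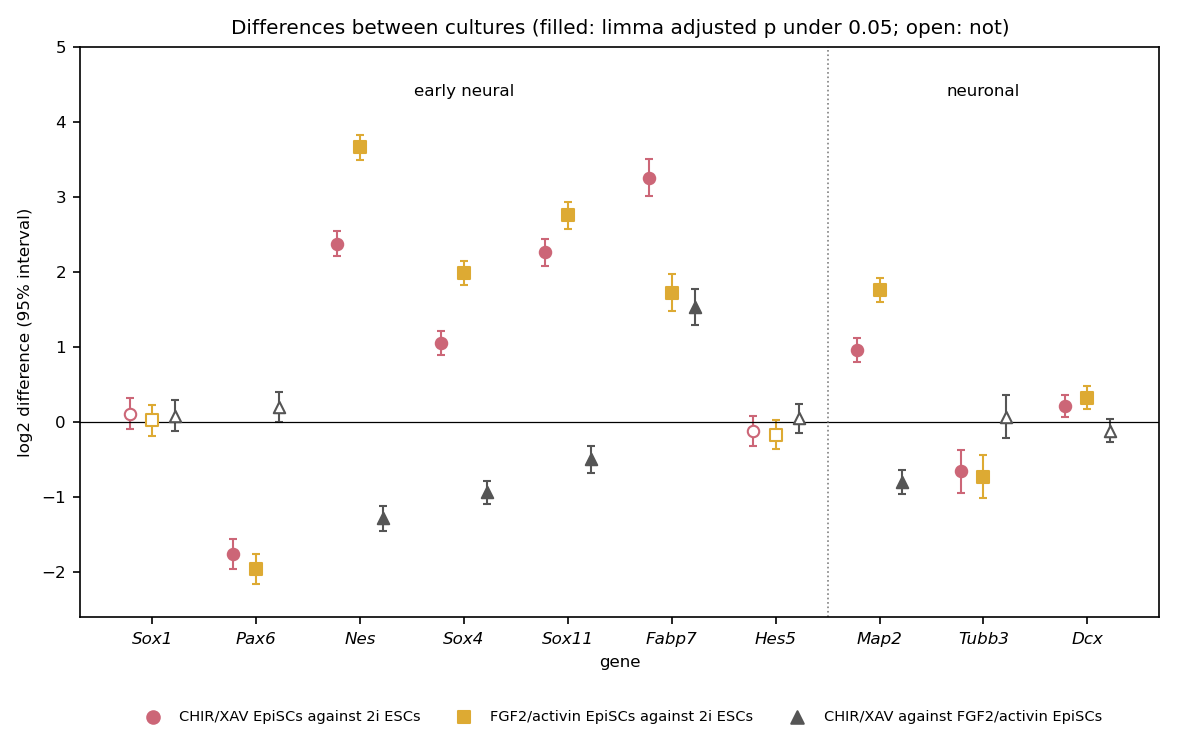
Log2 differences of the 10 genes in the 3 comparisons, with 95% intervals from limma; filled symbols passed an adjusted p of 0.05. Nes, Sox4, Sox11 and Map2 are above 0 in both comparisons with ESCs and below 0 for CHIR/XAV against FGF2/activin, and Fabp7 is above 0 in all 3.

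The comparison of the EpiSC cultures sets both media side by side within a strain. The labels do not say that both groups are of the same line. In the stretch of chromosome 15 from Amigo2 to Atf1, which holds none of the 10 genes, the 75 genes tested had a median difference of 0.55 between the groups (0.91 for the 50 outside the dimmest 40%), and a difference of line, if there was one, cannot be told apart from the medium. Fabp7 was higher in CHIR/XAV, 4 genes (Nes, Sox4, Sox11 and Map2) were lower, and 5 were not called, where 41.6% of all genes were called, 20.5% higher and 21.1% lower. At 2-fold or more 1 gene was higher (Fabp7) and 1 lower (Nes), where 4.11% of all genes were called, 1.62% higher and 2.5% lower. The EpiSC arrays did not overlap for the 5 called genes, where 52% of all genes had groups without overlap. In bulk RNA, fewer cells with a transcript and less transcript per cell cannot be told apart.

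Early neural and neuronal genes were then set side by side, as a description. Of the 7 early genes 4 rose and 1 fell against ESCs in each EpiSC group, with a median difference of 1.05 in CHIR/XAV and 1.73 in FGF2/activin EpiSCs. Sox4 and Sox11 were counted as early and were among these rises, although they also act in the neuronal programme. The median of 1.05 is the Sox4 value itself, so the early medians depend on this grouping. Of the 3 neuronal genes 2 rose and 1 fell in each, with medians of 0.21 and 0.33. Both of these medians are the Dcx values, and Dcx was among the dimmest 40% of genes. The Dcx call in CHIR/XAV EpiSCs was lost in 6 of 18 settings, so the neuronal medians are no firmer than the early ones. The shares of all genes called were 24.7% higher with 22.1% lower for CHIR/XAV, and 27.8% higher with 33.5% lower for FGF2/activin. Over all genes tested the medians were -0.03 and -0.08. Averaged per array and set against the ESC mean of each gene, the early genes stood at 0.98 to 1.10 in CHIR/XAV and 1.12 to 1.18 in FGF2/activin EpiSCs, and the neuronal genes at 0.05 to 0.29 and 0.42 to 0.50. Neither group of genes moved as a block: Pax6 went against the other early genes that changed, and Tubb3 against Map2.

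The genes whose profile over the 9 arrays lay nearest to each neural gene, after each gene was centred on its own mean, were as follows, for the 6 neural genes with group means at least 1 apart. Nearest to Nes were Ghr, the growth hormone receptor gene (distance 0.14), and Anxa5, which encodes annexin A5 (0.30). Nearest to Sox4 were Farp1 (0.14) and Them5 (0.15), to Sox11 Zfp677 and Plxdc2 (both 0.32 to 0.33), and to Map2 Lix1 (0.19) and Plekhg2 (0.21). Nearest to Fabp7 were Trim21 (0.44), a ubiquitin ligase gene, and the interferon-induced chemokine gene Cxcl10 (0.62). Nearest to Pax6 were Lrig1 (0.27), which encodes an inhibitor of growth factor receptors, and Pycard (0.32), which encodes an inflammasome adaptor. The distance is Euclidean, in log2 units over 9 arrays. Ghr went from a mean of 5.53 in ESCs to 7.85 in CHIR/XAV and 9.11 in FGF2/activin EpiSCs, and Trim21 from 5.20 to 8.36 and 7.0.

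Wider lists of neural genes were mixed in direction. The counts of called genes in this and all later lists stand beside these shares of all genes tested. In CHIR/XAV EpiSCs against ESCs 24.7% were called higher and 22.1% lower, and in FGF2/activin EpiSCs 27.8% and 33.5%. Between the media 20.5% were called higher and 21.1% lower in CHIR/XAV. Another 30 neural progenitor and neural plate genes were analysed. In CHIR/XAV EpiSCs 10 rose and 9 fell (median -0.08), and in FGF2/activin EpiSCs 10 rose and 12 fell (median -0.13). When arrays were centred on the genes tested, 10 rose and 15 fell in the first and 10 rose and 16 fell in the second. Otx2, a homeobox factor of the primed epiblast and the anterior neural plate, rose from 5.45 to 9.10 and 9.41, and Meis1, a homeobox cofactor, from 4.78 to 7.69 and 7.79. Gbx2, a homeobox factor that opposes Otx2 at the midbrain-hindbrain boundary, fell from 7.88 to 6.22 and 5.88, and Sox21, a SoxB2 factor, from 7.37 to 5.36 and 5.31. Each of these 4 genes was called in both comparisons with ESCs (limma, adjusted p of 7.22e-10 or lower). The EpiSC groups differed in 14 of the 30 genes, 9 higher and 5 lower in CHIR/XAV, where 41.6% of all genes were called.

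Another 27 neuronal and proneural genes were analysed. In CHIR/XAV EpiSCs 11 rose and 7 fell (median -0.05). In FGF2/activin EpiSCs 9 rose and 5 fell (median 0.02), or 9 and 11 when arrays were centred on the genes tested and 10 and 3 when centred on all probe sets. The neurofilament genes Nefm and Nefl rose in both, Nefm from 4.73 to 8.76 and 7.95 and Nefl from 8.73 to 11.07 and 11.30. Insm1, a zinc-finger factor of neural and endocrine progenitors, rose by 2.90 (SE 0.16) in CHIR/XAV and by 0.95 in FGF2/activin EpiSCs. Stmn2, which encodes a tubulin-binding protein of growing axons, rose by 0.53 in CHIR/XAV and fell by 2.39 in FGF2/activin EpiSCs (limma adjusted p = 7.9e-06 and 4.97e-13). Its means were 10.74 in ESCs, 11.27 in CHIR/XAV and 8.35 in FGF2/activin EpiSCs. Between the EpiSC groups 8 of the 27 were higher and 9 lower in CHIR/XAV, where 20.5% and 21.1% of all genes were.

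Glial and neural crest lists were mixed in direction too. Of 10 glial genes 1 rose and 3 fell in CHIR/XAV EpiSCs and 2 rose and 5 fell in FGF2/activin EpiSCs. Centring on the genes tested made the first 1 and 6, and quantile normalization made the second 2 and 3. Slc1a3, the glutamate transporter of radial glia and astrocytes, rose from 5.66 to 7.85 and 7.65. Olig1, a factor of oligodendrocyte precursors, rose by 1.57 in FGF2/activin EpiSCs and read -0.17 in CHIR/XAV EpiSCs, where it was not called (limma adjusted p = 0.153), except without ESC replicate 3 and when centred on the genes tested, with values from -0.27 to -0.07 over all alternatives. The difference between the media was -1.74 (SE 0.09, limma adjusted p = 2.34e-09). Of 12 neural crest and border genes 3 rose and 4 fell in CHIR/XAV and 2 rose and 3 fell in FGF2/activin EpiSCs, the latter 2 and 5 when centred on the genes tested and 3 and 3 when centred on all probe sets. Foxd3, a forkhead factor of crest and of pluripotent cells, rose from 5.64 to 8.01 and 8.14, and Ngfr, the p75 neurotrophin receptor gene, fell from 8.16 to 6.01 and 6.77. Slc1a3 lies on chromosome 15, where 474 genes outside the dimmest 40% had a median difference of 0.37 between CHIR/XAV EpiSCs and ESCs, and the part of that shift was not tested.

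**Figure D3:**
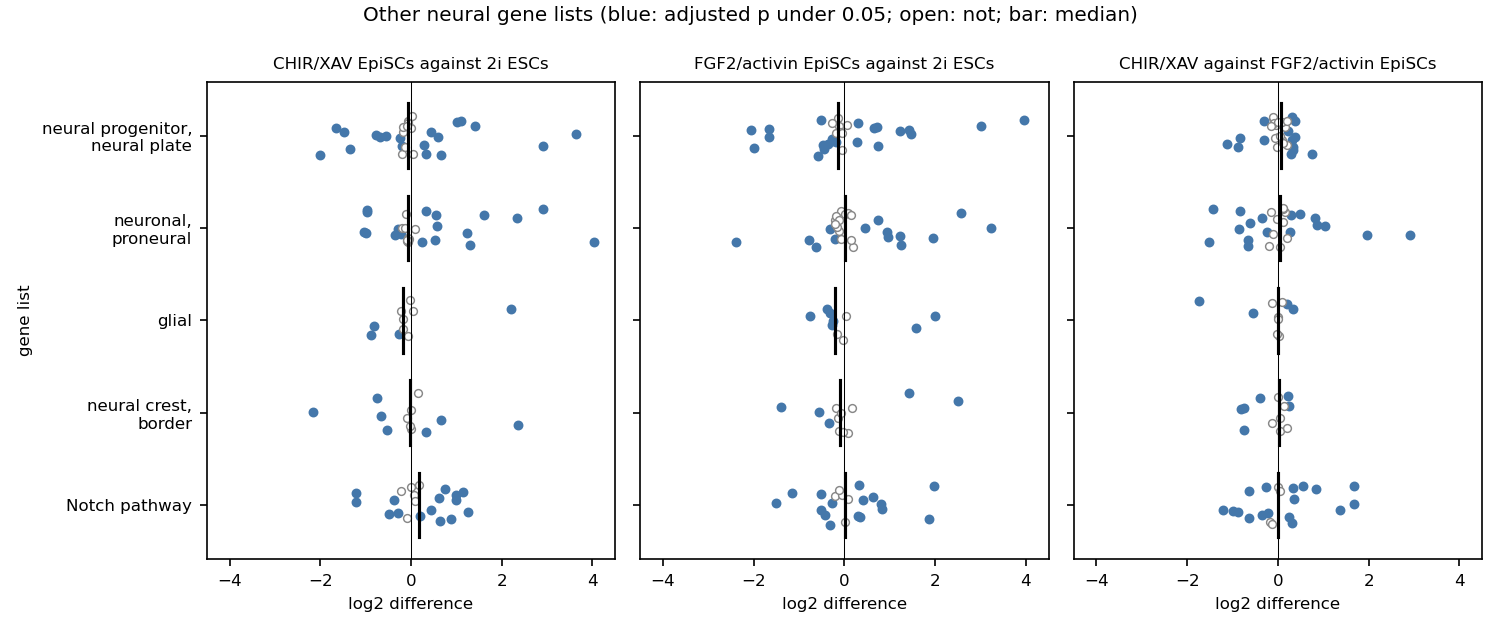
Log2 difference of each measured gene (points; blue where limma's adjusted p was under 0.05) of 5 other neural lists in the 3 comparisons, with the list median as a bar. The medians against ESCs lie between -0.21 and 0.18, and single genes against ESCs range from -2.39 (Stmn2 in FGF2/activin EpiSCs) to 4.03 (Nefm in CHIR/XAV EpiSCs).

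The Notch pathway, through which Hes5 is induced, had 21 measured genes besides Hes5. In CHIR/XAV EpiSCs 10 rose and 5 fell (median 0.18), and in FGF2/activin EpiSCs 9 rose and 7 fell (median 0.0017), or 6 and 9 after quantile normalization. The receptor gene Notch3 rose from 6.45 to 7.44 and 8.42, and the ligand gene Jag2 from 6.19 to 7.18 and 8.07, so both were highest in FGF2/activin EpiSCs. Dll3, which encodes a divergent ligand, rose by 1.25 in CHIR/XAV and fell by 0.44 in FGF2/activin EpiSCs, and Mfng, a glycosyltransferase gene that modifies Notch, rose by 1.15 and fell by 0.52. Between the media Dll3 differed by 1.68 (SE 0.09, limma adjusted p = 2.89e-09) and Mfng by 1.67 (SE 0.08, limma adjusted p = 1.31e-09). Mfng also lies on chromosome 15. In the Hes family Hes1, another Notch target, fell by 1.21 (SE 0.07, limma adjusted p = 3.87e-09) in CHIR/XAV EpiSCs. In FGF2/activin EpiSCs Hes1 stood at 8.20 against 8.19 in ESCs (limma adjusted p = 0.984). Over the alternatives that difference ran from -0.18 to 0.07, and it was called after quantile normalization alone. Not all related genes fell with Hes1 in CHIR/XAV EpiSCs. Hes6 rose by 0.96 there and by 0.48 in FGF2/activin EpiSCs. Of the Hey genes in the Notch list, Hey1 rose by 0.89 in CHIR/XAV EpiSCs (limma adjusted p = 8.66e-07), and Hey2 and Heyl were not called.

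The relatives of each neural gene were examined in turn. Among 9 intermediate filament genes 6 rose and 1 fell in CHIR/XAV EpiSCs, and 6 rose and 2 fell in FGF2/activin EpiSCs. Besides Nes, Nefm and Nefl, Prph (peripherin) rose by 2.97 and 1.45, while Ina, which encodes alpha-internexin, fell by 2.52 and 2.97. The dimmer probe set of Ina differed by -1.85 and -3.05. Prph lies in a stretch of chromosome 15, from Amigo2 to Atf1, where the 75 genes tested had a median difference of 0.52 in CHIR/XAV EpiSCs and -0.10 in FGF2/activin EpiSCs. The 50 of them outside the dimmest 40%, Prph included, had medians of 0.95 and -0.0025, and the part of this stretch in the Prph values was not tested.

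Among 7 measured beta-tubulin genes 2 rose and 3 fell in each EpiSC group, Tubb3 among the falls. Tubb4a, another isotype of neural tissue, rose from 4.70 to 7.02 and 7.11, and Tubb6 from 9.40 to 10.21 and 11.06. Tubb2b, an isotype of the developing brain, fell from 11.25 to 10.15 and 10.61. Map2 and Dcx were among 12 genes of microtubule-associated proteins. In CHIR/XAV EpiSCs 6 of these 12 rose and 5 fell, or 3 and 5 when arrays were centred on the genes tested. In FGF2/activin EpiSCs 5 rose and 4 fell. Map2 and Dcx were among the rises in both groups as deposited. Dclk1, a kinase related to doublecortin, rose by 2.92 and 2.72. Dclk2, a further relative, fell by 0.75 and 1.16. Map1b fell by 0.97 in CHIR/XAV EpiSCs and rose by 0.45 in FGF2/activin EpiSCs, and differed by -1.42 (SE 0.11, limma adjusted p = 1.56e-07) between the media.

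Of the 19 Sox genes, Sox1, Sox4 and Sox11 included, 5 rose and 3 fell in CHIR/XAV EpiSCs, and 3 rose and 7 fell in FGF2/activin EpiSCs. When arrays were centred on the genes tested, 4 rose and 5 fell in the first and 3 rose and 10 fell in the second. Sox4, Sox11 and Sox9 rose in both groups. Sox9, a factor of neural stem cells and crest, rose by 0.67 and 1.43. Sox2, the SoxB1 relative of Sox1 that pluripotent and neural cells share, fell by 0.77 and 0.47 from 11.80. Sox15 fell by 2.40 and 2.32. Of the 9 Pax genes Pax6 was the only one outside the dimmest 40%. Pax6 was also the only Pax gene that fell in CHIR/XAV EpiSCs, or 1 of 3 when arrays were centred on the genes tested, and in FGF2/activin EpiSCs 6 fell, or 2 after quantile normalization and 9 when arrays were centred on the genes tested. Among 9 Fabp genes, Fabp7 and Fabp5 rose in both EpiSC groups. Fabp5, the epidermal fatty acid binding protein gene, rose by 1.32 and 1.55, and its second probe set differed by 1.47 and 1.73. Between the EpiSC groups Fabp5 differed by -0.23 and was not called (limma adjusted p = 0.176), but was called with array weights and without CHIR/XAV replicate 1, with values from -0.38 to -0.11 over all alternatives.

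**Figure D4:**
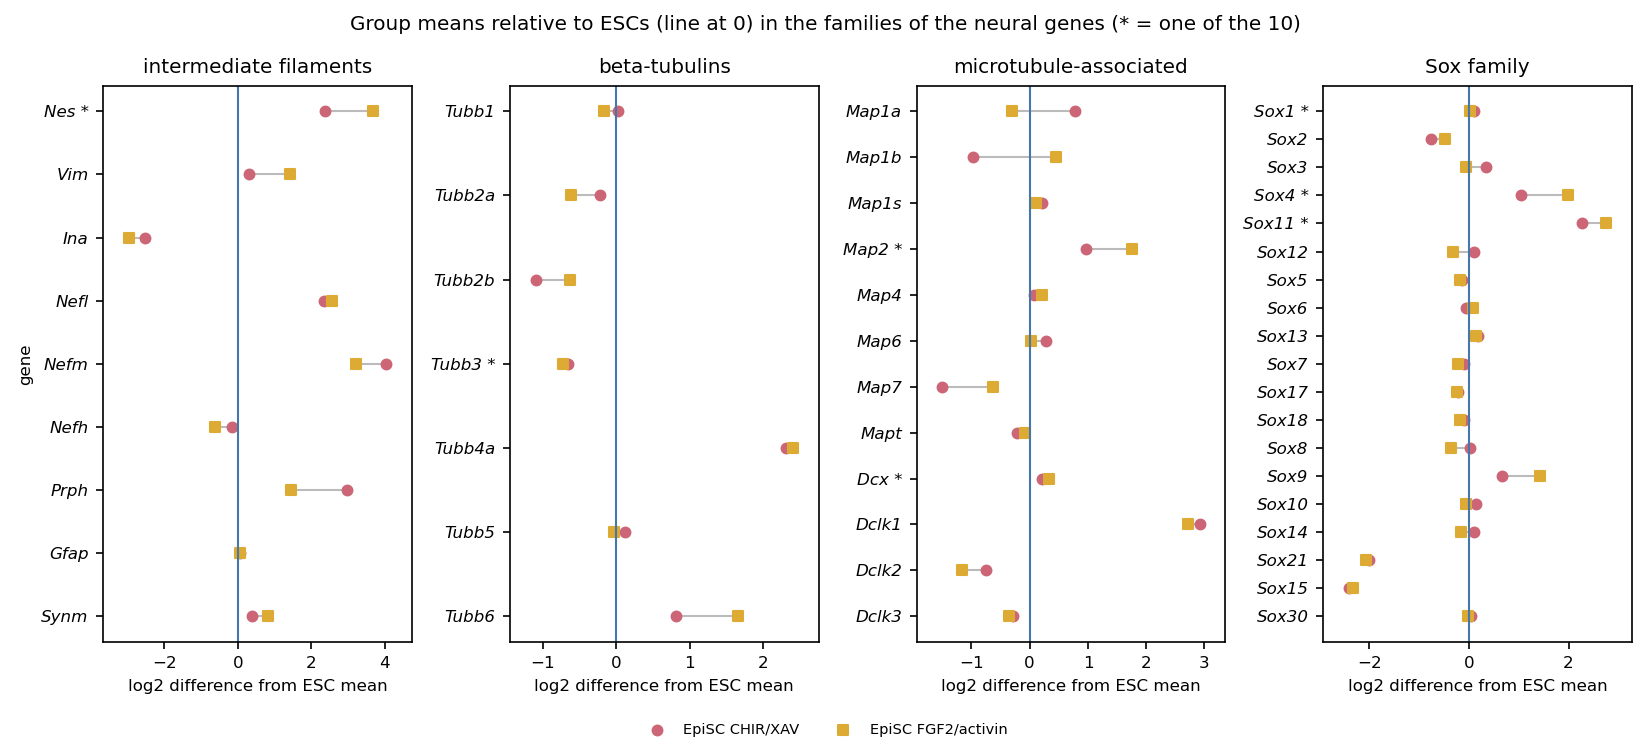
Group means of CHIR/XAV (circles) and FGF2/activin (squares) EpiSCs relative to the ESC mean (line at 0), in log2 units, for the measured genes of 4 families; an asterisk marks the neural genes described first. Nes rises beside Nefl and Nefm while Ina falls, and Tubb3 falls while Tubb4a and Tubb6 rise.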

How the data were processed

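Total RNA of 9 samples was hybridised to 1-colour arrays. The authors deposited log2 values, a scale taken here from their range. RMA and Partek appear in the submitters' processing notes without a version. Probe sets with 1 annotated symbol (21789 of 35399; 1621 had several and 11989 none) gave 19938 genes, of which 19856 matched a RefSeq table of GRCm38.p6 by gene identifier. The brightest probe set by mean over 9 arrays stood for each of the 999 genes with several. All 9 arrays entered 1 linear model (lmFit and eBayes of limma 3.58.1, R 4.3.3), with Benjamini-Hochberg adjustment over all genes and a threshold of 0.05. The number of arrays limits the precision. Data were simulated for CHIR/XAV EpiSCs against ESCs with 19938 genes. The model called 88.1% of 67 genes given a shift of 0.5 (log2), all 67 given 1 and all 66 given 2. Of its 195 calls 3 were false. Few genes were shifted there, with independent noise, whereas 46.7% of genes were called in the data. These rates therefore need not hold for the data. The 10 genes and the lists were chosen with earlier results of these data known. From each list at most 4 called genes with the largest difference and groups that did not overlap were named. Replicate numbers did not pair the arrays. Alternatives were other probe summaries, filters, scalings, variance models, array weights, a replicate block, a test against a 1.5-fold change and each array left out. Centring on the median of the genes tested was added after the data were seen.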

Additional observations from a re-analysis of the deposited data

Results flagged for a closer look

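No neural gene of the 10 was called in opposite directions against ESCs in the EpiSC groups. Among the genes named from the wider lists, 4 were, and each also differed between the media in limma's test. Stmn2 was higher in CHIR/XAV than in FGF2/activin EpiSCs by 2.92, Dll3 by 1.68 and Mfng by 1.67, and each was higher than in ESCs in CHIR/XAV and lower in FGF2/activin. Map1b differed the other way, by -1.42, lower than in ESCs in CHIR/XAV and higher in FGF2/activin. In a test against a 1.5-fold change, the smaller of the opposite differences from ESCs was no longer called in any of the 4: Stmn2 at 0.53, Dll3 at -0.44, Mfng at -0.52 and Map1b at 0.45. The named genes were picked for large differences, and they were not the only such genes in the lists. Isl1 (-0.28 in CHIR/XAV and 1.25 in FGF2/activin EpiSCs), Cdh2 (-0.56 and 0.29) and Maml1 (-0.29 and 0.34) were also called in opposite directions. The share of all genes with opposite calls was not computed.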

How the results depend on the processing

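Over 30 differences of the 10 genes and up to 19 settings, 543 of 567 values kept direction and call, 11 lost the call, 8 gained it and 5 changed sign, and none of the 5 was called. Under a limma treat test against 1.5-fold, 2241, 2726 and 1175 genes were called for CHIR/XAV against ESCs, FGF2/activin against ESCs and CHIR/XAV against FGF2/activin. That test left 1 neural gene (Pax6) lower against ESCs in each EpiSC group, and 2 (Nes and Sox4) lower between the media. Array weights made 2 neural genes (Fabp7 and Pax6) higher in CHIR/XAV than in FGF2/activin, and leaving out single arrays gave 1 to 2. With single arrays left out, Sox1 ranged from -0.0029 to 0.23 (CHIR/XAV against ESCs) and -0.027 to 0.20 (between media), Hes5 from -0.0010 to 0.14 and Tubb3 from -0.076 to 0.22 (between media); the other sign change was Sox1 in FGF2/activin EpiSCs, at -0.0503 when centred on the genes tested. Those causes were not tested. With the replicate block 9325, 12202 and 8246 genes were called, against 9320, 12218 and 8300, and no call of the 10 genes changed; correlations of deviations between same-numbered arrays ran from -0.07 to 0.24, so the numbers were not taken as pairs. The share of calls that were higher moved from 52.7% to 35% and from 45.3% to 35% against ESCs when centred on the genes tested, and to 56.6% and 55.1% when centred on all probe sets. Centring on the genes tested shifted the median of all genes from -0.03 to -0.13 and from -0.08 to -0.16. Dim genes, Dcx among them, are limited by signal over background.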
